A study of Homo sapiens with 6 samples.

Results

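The genes described here are 34 genes of cholesterol and fatty acid synthesis, of their control and of sterol movement, chosen by name from what is known of SREBP-controlled lipid genes and matched to the gene symbols of the count files. The choice was made with earlier results of these data known. Shares of these genes set beside all genes below are therefore not independent of the data. All 34 were found among the 24462 symbols listed, and all 34 were among the 12650 symbols with enough counts to be tested. They were measured in MDA-MB 231 cells, a triple-negative breast cancer cell line, 48 h after transfection with Lipofectamine 3000. The 3 groups, of 2 libraries each, were given a negative control (NC) mimic, miR-200a mimic at 100 nM, or that dose of miR-200a mimic plus 30 ng of an ELK3 expression plasmid (labelled miR-200a plus ELK3), which the treatment label spells pcDNA3.1 Hygro(+)-ELK3 and the protocol pcDNA3.1-Flag-ELK3. The libraries were made by QuantSeq, which reads polyadenylated RNA near its 3′ end. The dose of the NC mimic, and whether the NC mimic and miR-200a groups also received an empty plasmid, are not given in the sources used here, so that an effect of ELK3 and an effect of plasmid transfection cannot be told apart. Nothing in the labels says that the libraries of a group came from separate cultures, so p-values measure the spread between these libraries, which may be technical.

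Cells make cholesterol from acetyl-CoA through mevalonate, farnesyl diphosphate and squalene, and they make fatty acids from the same precursor through malonyl-CoA. Both routes are switched on by the sterol regulatory element binding proteins (SREBPs, encoded by SREBF1 and SREBF2), membrane-bound transcription factors that the escort protein SCAP carries from the endoplasmic reticulum to the Golgi when sterols are low and that INSIG1 holds back when sterols are high. Sterols leave the lysosome through NPC1 and leave the cell through ABCA1, whose gene is switched on by the liver X receptors when sterols are abundant.

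Total counts ranged from 3055915 to 4868004 per library, the members took 0.186% to 0.206% of them, and a member had between 10 and 1414 counts in a library. Levels are given in CPM, the usual per-library scaling of counts, with totals corrected by edgeR's TMM method, on which 3 counts corresponded to 0.611 to 0.979 CPM, a limit that covers counting error only. ELK3 itself had 618 and 509 counts after the NC mimic, 493 and 505 after miR-200a, and 406 and 337 in the libraries whose label adds ELK3. It was thus not higher where the label gives the plasmid (log2 fold change -0.23 against miR-200a, edgeR adjusted p = 0.354) and was lower there than with the NC mimic (log2 fold change -0.79, edgeR adjusted p = 0.0117), and these are called the ELK3-labelled libraries throughout. The plasmid carries the coding region without the 3′UTR, so a 3′ count of ELK3 checks this label poorly. Of markers of a claudin-low, hormone receptor negative line, VIM had 4068 to 11179 counts, ESR1 had 0 in all 6 libraries and PGR had 0 or 1. SPARC with 0 to 8 counts, CLDN4 with 589 to 1143, CLDN7 with 123 to 416 and EPCAM with 39 to 140 went against that list. CD44 and CLDN7 were lower in the ELK3-labelled libraries than with miR-200a (log2 fold changes of -0.61 and -1.21, edgeR adjusted p = 0.0151 and 0.00580), and their part in the results below was not tested.

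Of the members, 3 were called lower (edgeR adjusted p under 0.05) in the ELK3-labelled libraries than in both other groups. These 3 members were NPC1 and ABCA1 of sterol movement and the SREBP retention factor INSIG1. The other 7 members called in 1 or both of these comparisons were genes of the synthetic steps, and all were higher. Over all genes, 12.9% were called in each comparison. Not all synthetic genes rose. Against miR-200a, log2 fold changes were negative for 2 of 7 genes of the mevalonate steps and 3 of 10 of the sterol steps. They were also negative for 3 of 10 of the fatty acid and lipid steps. Of the 7 called genes, DESeq2 called FDPS, ACAT2 and ACSL3 in neither comparison. No member passed the test between miR-200a and the NC mimic. The heat map of all members in the 6 libraries shows these genes beside the members that did not pass.

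**Figure D1:**
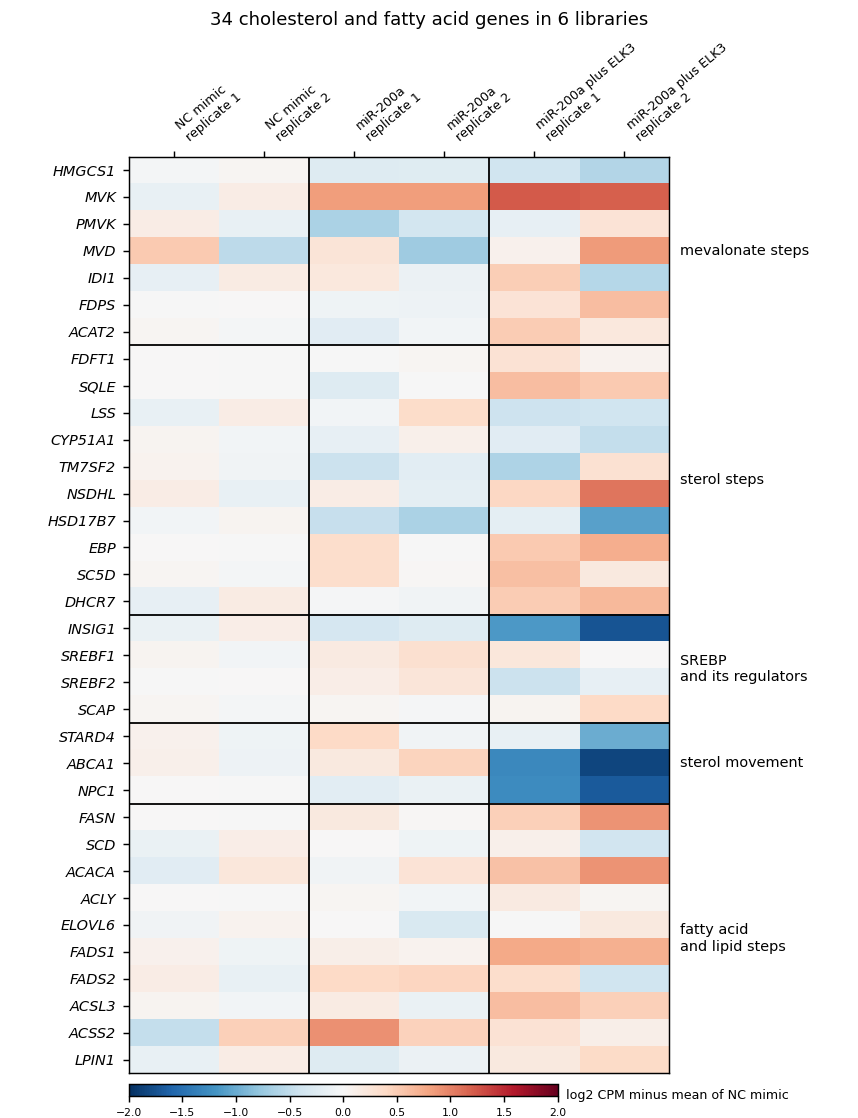
Each row is 1 of the 34 members, grouped by role, and each column 1 of the 6 libraries. The colour gives log2 CPM minus the mean of the 2 NC mimic libraries (scale from -2 to 2), with INSIG1, ABCA1 and NPC1 blue in both ELK3-labelled libraries and MVK red in the 4 libraries that received miR-200a.

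The sequence of the mimic bears on the first comparison. Mature hsa-miR-200a-3p (RefSeq, GRCh38.p14, chr1:1167916-1167937, plus strand) is shown with its seed, bases 2 to 8, in capitals.
hsa-miR-200a-3p: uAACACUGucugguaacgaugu
A match to this seed reads CAGTGTT in the target. In the longest annotated 3′UTR (GENCODE release 29, GRCh38), 6 of the 34 members held at least 1 match (17.6%), as did 2431 of 11237 tested genes with a 3′UTR (21.6%). The 6 were HMGCS1, STARD4, SCD, ACSL3, ACSS2 and NPC1. SCD had 2 matches and the others 1 each. The matches in HMGCS1, the only one followed by an A, and in NPC1 and ACSL3, which were called in the comparisons below, are shown with the match in capitals.
HMGCS1 (chr5:43290172-43290178, minus strand): tttctgatgcttCAGTGTTataaa
NPC1 (chr18:23531628-23531634, minus strand): acatgttcttcaCAGTGTTcccct
ACSL3 (chr2:222943222-222943228, plus strand): gacattgcaataCAGTGTTttttg

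The comparison of miR-200a with the NC mimic asks what the mimic alone did. None of the 34 members had an adjusted p under 0.05 by edgeR's quasi-likelihood test, which called 0.269% of all genes tested (0.213% higher and 0.0553% lower with miR-200a). By DESeq2 and by limma the count was also 0. At an unadjusted p under 0.05, 1 member passed, against 9.24% of all genes. The median log2 fold change of the members was 0.00084, and that of all genes tested was -0.019. The 2 libraries of each group did not overlap for 15 of the 34 members (6 higher and 9 lower with miR-200a), a share of 44.1% beside 48.9% of all genes. For the 6 members with a seed match the median log2 fold change was -0.011, and for the other 28 it was 0.00084.

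The member at the unadjusted threshold was MVK, mevalonate kinase. It had 8.46 and 10.4 CPM with the NC mimic, 16.8 and 16.7 CPM with miR-200a, and 22 and 21.6 CPM in the ELK3-labelled libraries. All 4 libraries with the mimic were thus above both NC mimic libraries. The log2 fold change of MVK after miR-200a, relative to the NC mimic, was 0.84 (SE 0.25, unadjusted p = 0.00638, edgeR adjusted p = 0.286). MVK was the 1 member called when only these 2 groups were fitted. It was also the 1 member to pass the cut-offs of the study (unadjusted p under 0.05, fold change over 1.5, mean log2 normalized count over 3). Over all genes, 983 were called when only these 2 groups were fitted, and 578 passed the cut-offs of the study. These cut-offs were applied here to edgeR p-values and TMM-scaled counts, not to the p-values and normalized data of the study. The lowest MVK count in any library was 32.

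The ELK3-labelled libraries were then compared with those of miR-200a and with those of the NC mimic. These comparisons share the ELK3-labelled libraries, and the miR-200a and NC mimic libraries also entered the comparison above, so the results are not independent of each other. Against miR-200a, 7 of the 34 members were called (20.6%), beside 12.9% of all genes. Of these, 4 were higher, beside 7.03% of all genes, and 3 were lower, beside 5.91% of all genes. Against the NC mimic, 8 members were called (23.5%), beside 12.9% of all genes, with 5 higher, beside 6.92% of all genes, and 3 lower, beside 5.95% of all genes. At an unadjusted p under 0.05, the counts of members were 17 (12 higher and 5 lower) and 15 (11 higher and 4 lower), beside 30.6% of all genes in each comparison. The groups did not overlap for 25 members in each comparison, or 73.5%, beside 58.2% of all genes against miR-200a and 56.7% of all genes against the NC mimic.

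The median log2 fold change of the members was 0.22 against miR-200a and 0.14 against the NC mimic, and that of all genes tested was 0.016 and 0.011. The number called depended on single libraries, among the members and over all genes alike. Against miR-200a, where 7 members and 1637 genes were called, 0 members and 31 genes were called without miR-200a replicate 2, and 2 members and 49 genes without miR-200a replicate 1. Without NC mimic replicate 1 or replicate 2, 4 members were called in either case, with 568 and 574 genes. Without ELK3-labelled replicate 1, 19 members and 4684 genes were called. Against the NC mimic, where 8 members and 1629 genes were called, 2 members and 97 genes were called without NC mimic replicate 1, and 1 member and 96 genes without NC mimic replicate 2. Without miR-200a replicate 1 or replicate 2, 5 members were called in either case, with 583 and 579 genes, and without ELK3-labelled replicate 1, 18 members and 4675 genes. With ELK3-labelled replicate 2 left out, more genes were likewise called over all genes in both comparisons than with no library left out. The root mean square of the log2 CPM differences over the 34 members was 0.47 between the 2 ELK3-labelled libraries, 0.31 between those of the NC mimic and 0.29 between those of miR-200a.

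**Figure D2:**
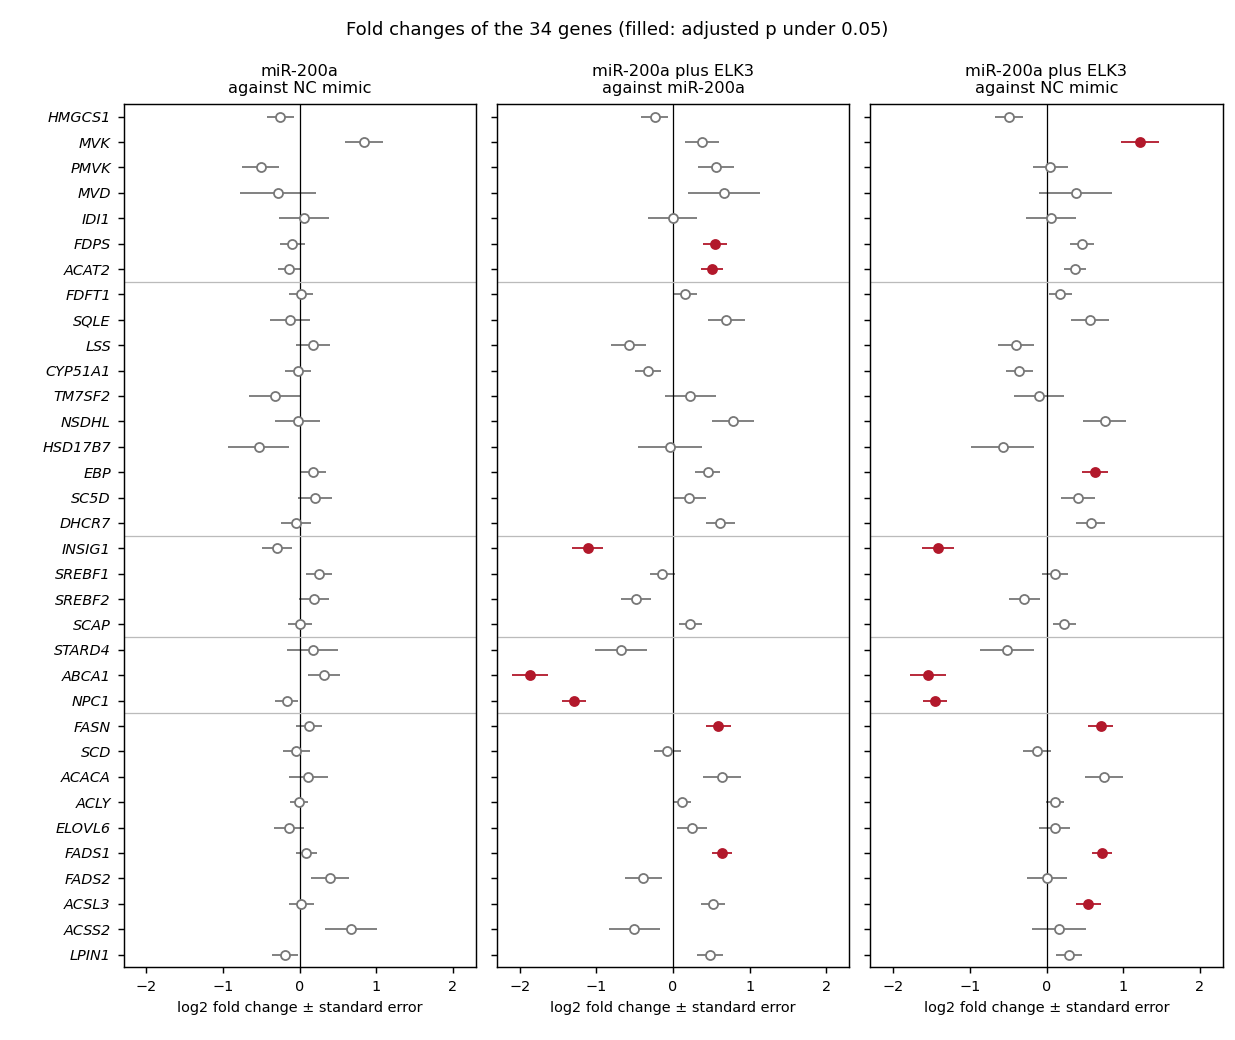
Log2 fold change (x axis) of each of the 34 members (y axis, lines between roles) in the 3 comparisons, with bars of 1 standard error; filled red points have an adjusted p under 0.05. No point is filled for miR-200a against the NC mimic, 7 are filled against miR-200a and 8 against the NC mimic in the ELK3-labelled libraries.

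Of the 3 genes of sterol movement, 2 were called in each comparison (66.7%, beside 12.9% of all genes), both lower. NPC1, the membrane protein that exports cholesterol from late endosomes and lysosomes, had 205 and 203 CPM with the NC mimic, 177 and 186 CPM with miR-200a, and 85.0 and 63.5 CPM in the ELK3-labelled libraries. Both of the latter libraries were below the other 4. NPC1 was 2.44-fold lower than with miR-200a (log2 fold change -1.29, SE 0.16, edgeR adjusted p = 0.00208) and 2.75-fold lower than with the NC mimic (log2 fold change -1.46, SE 0.16, edgeR adjusted p = 0.000802). Against the NC mimic the fall of NPC1 passed in 14 of 14 alternative fits, and against miR-200a in 13 of 14, the exception being the fit without miR-200a replicate 2 (adjusted p = 0.0624).

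ABCA1, the transporter that moves cholesterol out of the cell onto apolipoprotein A-I, had 36.7 and 32.0 CPM with the NC mimic, 39.4 and 46.9 CPM with miR-200a, and 14 and 9.64 CPM in the ELK3-labelled libraries. The groups did not overlap in either comparison. ABCA1 was 3.65-fold lower than with miR-200a (log2 fold change -1.87, SE 0.23, edgeR adjusted p = 0.00236) and 2.92-fold lower than with the NC mimic (log2 fold change -1.54, SE 0.24, edgeR adjusted p = 0.00432). Its adjusted p was 0.0624 against miR-200a without miR-200a replicate 2, and it reached 0.0691 against the NC mimic when a library of the NC mimic (replicate 1 or replicate 2) was left out. STARD4, a soluble carrier of cholesterol between membranes, had 9.71 and 5.41 CPM in the ELK3-labelled libraries and 10.1 to 14.1 CPM in the other 4. Its groups did not overlap, and its adjusted p values were 0.201 and 0.354. In bulk libraries such as these, fewer cells with a transcript and less of it in each cell cannot be told apart.

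Among the 4 genes of SREBP and its regulators, only INSIG1 passed the test (25% in each comparison, beside 12.9% of all genes). INSIG1 had 65.3 and 79.0 CPM with the NC mimic, 56.9 and 59.9 CPM with miR-200a, and 32.2 and 21.6 CPM in the ELK3-labelled libraries. Its 3 groups did not overlap, with the ELK3-labelled libraries the lowest. INSIG1 was 2.17-fold lower than with miR-200a (log2 fold change -1.12, SE 0.21, edgeR adjusted p = 0.0101) and 2.67-fold lower than with the NC mimic (log2 fold change -1.42, SE 0.21, edgeR adjusted p = 0.00340). Against miR-200a the call was lost by limma and without miR-200a replicate 1 or replicate 2 (adjusted p up to 0.126), and against the NC mimic without NC mimic replicate 2 (adjusted p = 0.0740).

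The transcription factor genes themselves did not pass. SREBF2, whose product acts mainly on cholesterol genes, had 27.4 and 27.4 CPM with the NC mimic, 30.1 and 32.4 CPM with miR-200a, and 20.4 and 24.4 CPM in the ELK3-labelled libraries (log2 fold changes of -0.48 and -0.29, edgeR adjusted p = 0.128 and 0.358). Its ELK3-labelled libraries were below the other 4. SREBF1, whose product acts mainly on fatty acid genes, had 43.2 and 40.5 CPM with the NC mimic, 47.5 and 52.4 CPM with miR-200a, and 48.8 and 41.8 CPM in the ELK3-labelled libraries, which overlapped both other groups. SCAP had 83.5 and 79.9 CPM with the NC mimic, 84.1 and 80.3 CPM with miR-200a, and 85.3 and 107 CPM in the ELK3-labelled libraries, a difference carried mainly by replicate 2 (log2 fold changes of 0.23 and 0.23, edgeR adjusted p = 0.348 and 0.338).

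**Figure D3:**
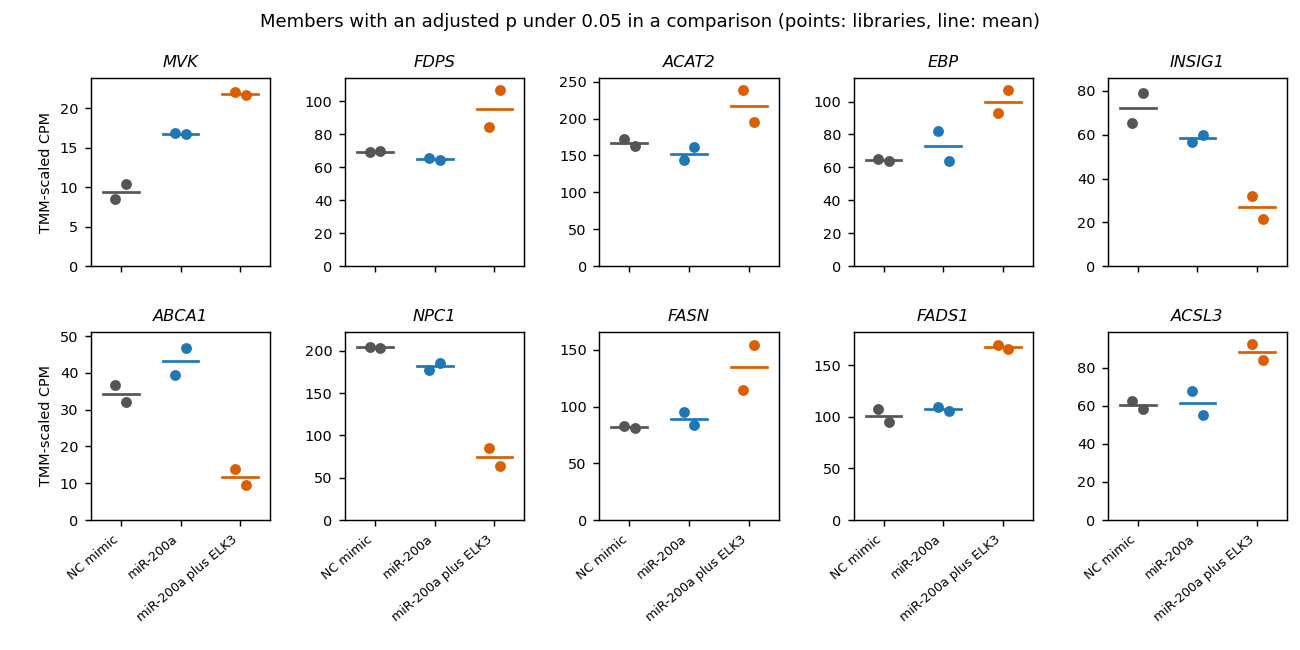
TMM-scaled CPM (y axis from 0) of the 10 members with an adjusted p under 0.05 in any comparison, in the 3 groups, with a point for each library and a line at the mean. INSIG1, ABCA1 and NPC1 were lower in both ELK3-labelled libraries than in the other 4, and the other 7 genes were higher.

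Of the 7 genes of the mevalonate steps, 2 were called against miR-200a (28.6%) and 1 against the NC mimic (14.3%), all of them higher. The share of all genes called in either direction was 12.9% in each comparison. MVK, whose values stand above, rose 2.33-fold against the NC mimic (log2 fold change 1.22, SE 0.24, edgeR adjusted p = 0.0126), and its log2 fold change against miR-200a was 0.38 (adjusted p = 0.278). The adjusted p against the NC mimic reached 0.135 when NC mimic replicate 1 or replicate 2 was left out. FDPS, which makes farnesyl diphosphate, had 69.0 and 70.2 CPM with the NC mimic, 65.8 and 64.6 CPM with miR-200a, and 84.5 and 107 CPM in the ELK3-labelled libraries. It was 1.47-fold higher than with miR-200a (log2 fold change 0.55, SE 0.16, edgeR adjusted p = 0.0439), and against the NC mimic its log2 fold change was 0.46 (adjusted p = 0.0811). ACAT2, the cytosolic acetyl-CoA acetyltransferase that starts the pathway, had 173 and 162 CPM with the NC mimic, 144 and 161 CPM with miR-200a, and 238 and 195 CPM in the ELK3-labelled libraries. It was 1.42-fold higher than with miR-200a (log2 fold change 0.51, SE 0.14, edgeR adjusted p = 0.0418), and against the NC mimic its log2 fold change was 0.37 (adjusted p = 0.109).

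Neither call was stable. FDPS passed against miR-200a in 3 of 14 alternative fits and ACAT2 in 5 of 14, and both calls were lost without NC mimic replicate 1, NC mimic replicate 2, miR-200a replicate 1 or miR-200a replicate 2. For FDPS the call was also lost without ELK3-labelled replicate 2, and the adjusted p reached 0.289 for FDPS and 0.336 for ACAT2. Of the other 4 genes of these steps, HMGCS1, which makes HMG-CoA, was lower in the ELK3-labelled libraries than in all others, at 28.7 and 25.1 CPM beside 31.6 to 39.2 CPM, with adjusted p values of 0.399 and 0.0978. PMVK, MVD and IDI1 had adjusted p values of 0.140 to 0.998 in these comparisons. The 2 ELK3-labelled libraries differed for IDI1, the isopentenyl diphosphate isomerase, with 29.1 CPM in replicate 1 and 13.9 CPM in replicate 2.

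Of the 10 genes of the sterol steps, from the making of squalene to cholesterol, none was called against miR-200a and 1 against the NC mimic (10%). Over all genes the share called was 12.9% in each comparison. At an unadjusted p under 0.05, 5 passed against miR-200a (50%, beside 30.6% of all genes), 4 of them with higher values. DESeq2 and limma called none of the 10 against miR-200a, and against the NC mimic DESeq2 called EBP and limma none. EBP, a sterol isomerase, had 64.8 and 64.0 CPM with the NC mimic, 81.8 and 63.8 CPM with miR-200a, and 92.8 and 107 CPM in the ELK3-labelled libraries, which did not overlap the others. EBP was 1.55-fold higher than with the NC mimic (log2 fold change 0.63, SE 0.17, edgeR adjusted p = 0.0335), and its adjusted p against miR-200a was 0.0913. Its call passed in 6 of 14 alternative fits and was lost without NC mimic replicate 1, NC mimic replicate 2, miR-200a replicate 1 or miR-200a replicate 2 (adjusted p up to 0.223).

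The other sterol genes did not pass, and their values lay in both directions. DHCR7, the enzyme of the last step of 1 branch of the pathway, had 39.1 and 43.0 CPM in the ELK3-labelled libraries beside 24.5 to 31.0 CPM in the other 4 (adjusted p = 0.0565 and 0.0763). SQLE, squalene epoxidase, had 17.1 and 16.0 CPM beside 9.34 to 11.1 CPM (adjusted p = 0.0890 and 0.157), and NSDHL, a sterol C-4 decarboxylase, had 20.1 and 31.7 CPM beside 13.2 to 16.8 CPM (adjusted p = 0.0841 and 0.0983). These 3 genes lay higher in both ELK3-labelled libraries. LSS, lanosterol synthase, lay lower with 18 and 18.3 CPM beside 21.6 to 31.2 CPM (adjusted p = 0.123 and 0.28), as did CYP51A1, the lanosterol demethylase, with 47.8 and 40.2 CPM beside 50 to 60.5 CPM (adjusted p = 0.227 and 0.198). FDFT1, TM7SF2, HSD17B7 and SC5D had adjusted p values of 0.233 to 0.964.

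Of the 10 genes of fatty acid and lipid steps, 2 were called against miR-200a (20%) and 3 against the NC mimic (30%), all of them higher. The share of all genes called in either direction was 12.9% in each comparison. FADS1, the delta-5 desaturase of polyunsaturated fatty acids, had 107 and 94.6 CPM with the NC mimic, 109 and 106 CPM with miR-200a, and 170 and 165 CPM in the ELK3-labelled libraries. It was 1.56-fold higher than with miR-200a (log2 fold change 0.64, SE 0.13, edgeR adjusted p = 0.0148) and 1.66-fold higher than with the NC mimic (log2 fold change 0.73, SE 0.13, edgeR adjusted p = 0.00882). The 2 libraries of each group lay close together, and each call of FADS1 passed in 11 of 14 alternative fits. The calls were lost by limma and without either library of the reference group, that is miR-200a replicate 1 or replicate 2 (adjusted p up to 0.193) and NC mimic replicate 1 or replicate 2 (adjusted p up to 0.143).

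FASN, fatty acid synthase, had 83.3 and 81.6 CPM with the NC mimic, 94.9 and 84.2 CPM with miR-200a, and 115 and 154 CPM in the ELK3-labelled libraries. It was 1.5-fold higher than with miR-200a (log2 fold change 0.59, SE 0.17, edgeR adjusted p = 0.0425) and 1.63-fold higher than with the NC mimic (log2 fold change 0.71, SE 0.17, edgeR adjusted p = 0.0240). The groups did not overlap, although the 2 ELK3-labelled libraries lay apart. The call of FASN passed in 3 of 14 alternative fits against miR-200a, where it was lost without NC mimic replicate 1 or replicate 2, miR-200a replicate 1 or replicate 2, or ELK3-labelled replicate 2 (adjusted p up to 0.317). It passed in 8 of 14 against the NC mimic, where it was lost without NC mimic replicate 1 or replicate 2 or miR-200a replicate 1 or replicate 2 (adjusted p up to 0.194).

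ACSL3, which joins long-chain fatty acids to coenzyme A, had 62.4 and 58.4 CPM with the NC mimic, 67.9 and 55.0 CPM with miR-200a, and 92.4 and 84.4 CPM in the ELK3-labelled libraries. It was 1.46-fold higher than with the NC mimic (log2 fold change 0.55, SE 0.16, edgeR adjusted p = 0.0492), and its adjusted p against miR-200a was 0.0537. The call of ACSL3 passed in 3 of 14 alternative fits and was lost without NC mimic replicate 1, NC mimic replicate 2, miR-200a replicate 1 or miR-200a replicate 2 (adjusted p up to 0.285). ACACA, the acetyl-CoA carboxylase that makes malonyl-CoA, had 25.6 and 31.7 CPM in the ELK3-labelled libraries beside 14.5 to 20.6 CPM in the other 4 (adjusted p = 0.107 and 0.0743). LPIN1, a phosphatidate phosphatase, had 72.7 and 83.4 CPM beside 53.4 to 70.8 CPM (adjusted p = 0.0803 and 0.261). ACLY, SCD, ELOVL6, FADS2 and ACSS2 had adjusted p values of 0.318 to 0.991, and of these SCD and ELOVL6 overlapped between the groups in all 3 comparisons.

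The position of some members limits what their counts mean. In GENCODE release 29, the last 500 bases of a transcript of FDPS, ACAT2, NPC1, HMGCS1, LSS and ACLY overlap an exon of a gene on the other strand, and those of FADS2 overlap FADS1 on the other strand and FEN1 on the same strand. Whether the counting used strand is not given in the sources used here. RUSC1-AS1, the antisense RNA at FDPS, had 96.6 to 99.4 counts per 100 counts of FDPS in the 6 libraries. TCP1, a chaperonin subunit gene at ACAT2, had 120 to 127 counts per 100 of ACAT2. C18orf8, an older symbol of RMC1 at NPC1, had 41.5 to 58.8 counts per 100 of NPC1. The reads of FDPS and ACAT2 therefore cannot be told apart from those of their partners.

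For NPC1 the partner also fell. C18orf8 had 93.1 and 94.3 CPM with the NC mimic, 73.5 and 79.5 CPM with miR-200a, and 50 and 31.0 CPM in the ELK3-labelled libraries. Its log2 fold changes were -0.92 against miR-200a and -1.21 against the NC mimic (edgeR adjusted p = 0.0198 and 0.00675). Part of the reads of either gene may have been counted for the other. FASN, MVK, EBP, ACSL3, INSIG1 and ABCA1 had no such overlap in the annotation. The last 500 bases of FADS1 transcripts overlapped no other gene, but those of FADS2 overlap FADS1, so reads of FADS2 may have been counted for FADS1. FADS1 had 298 to 827 counts per 100 of FADS2. FEN1, at the same place, was higher in the ELK3-labelled libraries (log2 fold changes of 1.07 against miR-200a and 0.85 against the NC mimic, edgeR adjusted p = 0.00236 and 0.00482).

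**Figure D4:**
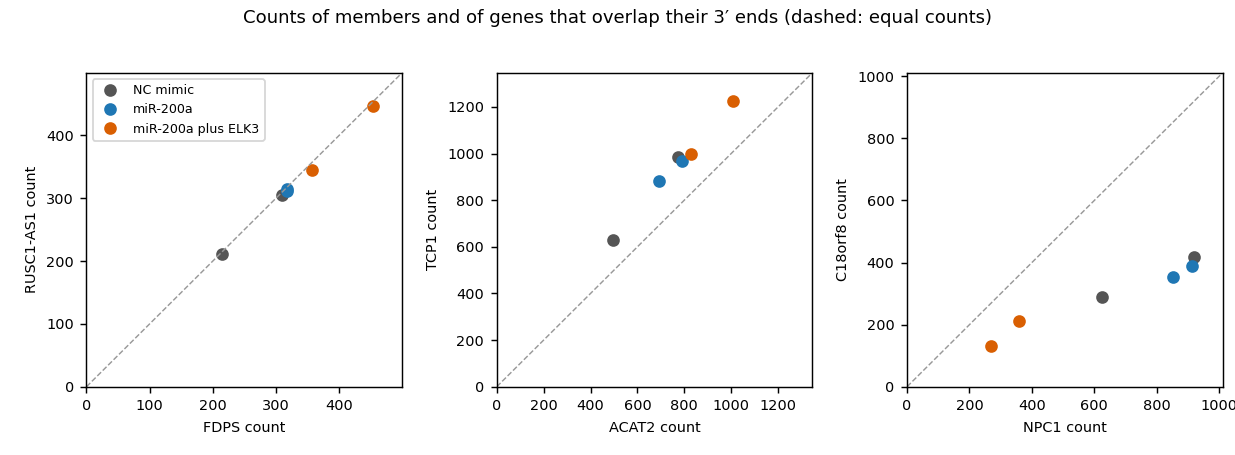
Counts of FDPS, ACAT2 and NPC1 (x axes) and of the genes that overlap their 3′ ends (y axes) in the 6 libraries, coloured by group, with a dashed line at equal counts. The points of FDPS and RUSC1-AS1 lie almost on the line, those of ACAT2 and TCP1 just above it, and those of NPC1 and C18orf8 below it.

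The promoters of the members were examined because SREBPs act through sterol response elements together with NF-Y and SP1. RefSeq promoters (GRCh38.p14, 250 bases before to 50 after the start) were matched for 30 of the 34 members, the others being FDFT1, SQLE, ACAT2 and FASN. The letters TCACNCCAC of a sterol response element were found on either strand in 1 of the 30 (3.33%, beside 1.13% of all 35116 promoters). CCAAT, the core of the NF-Y motif, was found in 18 of the 30 (60.0%, beside 34.6% of all promoters), and GGGCGG, the core of the SP1 motif, in 28 of the 30 (93.3%, beside 45% of all promoters and 65.9% of those of tested genes). No base was shared between matches of the 3 motifs in a member. A match of letters does not show a site in use, and elements may lie outside this window.

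The promoters of the 3 members called lower are shown with those of MVK and SREBF2, the 1 member with the sterol response element letters. TCACNCCAC and CCAAT, or its complement ATTGG, are in capitals.
SREBF2 (chr22:41832855-41833154, plus strand): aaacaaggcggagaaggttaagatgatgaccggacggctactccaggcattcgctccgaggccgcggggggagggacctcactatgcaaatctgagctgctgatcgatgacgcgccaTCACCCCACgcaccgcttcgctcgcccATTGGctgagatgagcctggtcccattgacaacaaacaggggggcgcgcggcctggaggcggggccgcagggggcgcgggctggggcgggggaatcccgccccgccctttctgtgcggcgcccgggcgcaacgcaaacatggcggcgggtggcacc
INSIG1 (chr7:155297628-155297927, plus strand): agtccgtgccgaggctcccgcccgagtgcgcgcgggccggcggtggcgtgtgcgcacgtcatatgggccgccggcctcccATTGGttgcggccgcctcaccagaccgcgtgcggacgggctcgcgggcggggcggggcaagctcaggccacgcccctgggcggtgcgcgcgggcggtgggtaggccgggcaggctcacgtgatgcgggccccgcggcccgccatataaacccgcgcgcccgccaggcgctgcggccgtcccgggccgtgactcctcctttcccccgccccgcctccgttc
ABCA1 (chr9:104928106-104928405, minus strand): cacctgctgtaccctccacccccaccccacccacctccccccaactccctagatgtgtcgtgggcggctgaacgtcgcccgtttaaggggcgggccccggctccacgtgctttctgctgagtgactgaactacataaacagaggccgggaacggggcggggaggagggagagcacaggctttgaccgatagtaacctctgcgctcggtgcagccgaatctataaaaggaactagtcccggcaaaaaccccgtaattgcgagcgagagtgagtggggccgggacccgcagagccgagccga
NPC1 (chr18:23586457-23586756, minus strand): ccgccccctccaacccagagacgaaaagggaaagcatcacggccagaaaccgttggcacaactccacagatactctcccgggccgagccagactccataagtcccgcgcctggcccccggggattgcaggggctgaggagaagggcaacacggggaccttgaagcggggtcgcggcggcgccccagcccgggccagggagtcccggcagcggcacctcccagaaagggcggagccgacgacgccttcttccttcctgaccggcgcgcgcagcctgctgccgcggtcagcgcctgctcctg
MVK (chr12:109573544-109573843, plus strand): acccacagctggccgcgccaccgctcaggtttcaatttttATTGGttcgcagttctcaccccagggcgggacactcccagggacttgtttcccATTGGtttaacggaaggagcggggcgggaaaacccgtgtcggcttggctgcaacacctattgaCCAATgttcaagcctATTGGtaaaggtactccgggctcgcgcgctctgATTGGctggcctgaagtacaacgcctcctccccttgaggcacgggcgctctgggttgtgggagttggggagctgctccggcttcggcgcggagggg
In SREBF2 the element began 133 bases before the start. INSIG1 and SREBF2 had 1 CCAAT each and MVK had 5, whereas ABCA1 and NPC1, which fell with INSIG1, had none in this window. INSIG1 had 6 matches to GGGCGG, ABCA1 and SREBF2 had 3 each, and NPC1 and MVK had 2 each.

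Other genes of the same pathways were taken from 4 lists, and the background is that of all genes given above. These lists too were chosen with earlier results of these data known. Of 99 tested genes of the 4 lists, 0 were called for miR-200a against the NC mimic by edgeR, 6 had an unadjusted p under 0.05, DESeq2 called 1 and limma called 0. With only these 2 groups fitted 6 were called, beside 983 over all genes. Leaving out an ELK3-labelled library also raised the number called, in these lists and over all genes alike. Of 20 tested genes of other cholesterol synthesis steps and SREBP regulators, 2 were higher against miR-200a (10%), and 2 were higher and 1 lower against the NC mimic (15%). UBE2G2, a ubiquitin-conjugating enzyme of degradation at the endoplasmic reticulum, was higher in the ELK3-labelled libraries by 0.98 and 0.91 on the log2 scale, against miR-200a and against the NC mimic (edgeR adjusted p = 0.00803 and 0.0102). IDI2, a homologue of IDI1, was higher than with miR-200a (log2 fold change 0.93, edgeR adjusted p = 0.0472), and its adjusted p against the NC mimic was 0.158. ERLIN2, an endoplasmic reticulum protein that binds the SREBP complex, was higher than with the NC mimic (log2 fold change 1.15, edgeR adjusted p = 0.0119). Its log2 fold change with miR-200a alone, relative to the NC mimic, was already 1.27 (edgeR adjusted p = 0.0590), and against miR-200a it was -0.11 (adjusted p = 0.739). INSIG2, the homologue of INSIG1, had 23.4 and 10.6 CPM in the ELK3-labelled libraries beside 38.3 and 38.5 CPM with the NC mimic (log2 fold change -1.17, edgeR adjusted p = 0.0317). With miR-200a alone INSIG2 had 27.8 and 28.7 CPM, and its adjusted p against miR-200a was 0.132.

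Of 21 tested genes of cholesterol efflux, uptake and trafficking, 4 were called against miR-200a (19.0%), all lower, and 6 against the NC mimic (28.6%), 5 of them lower. The median log2 fold change of this list was -0.34 against miR-200a and -0.24 against the NC mimic. LRP1, an endocytic receptor for lipoproteins, had 28.7 and 25.8 CPM with the NC mimic, 22.4 and 26.7 CPM with miR-200a, and 10.4 and 8.23 CPM in the ELK3-labelled libraries (log2 fold changes of -1.40 and -1.55, edgeR adjusted p = 0.00782 and 0.00474). NPC2, the lysosomal protein that hands cholesterol to NPC1, had 369 and 349 CPM with the NC mimic, 368 and 373 CPM with miR-200a, and 232 and 168 CPM in the ELK3-labelled libraries (log2 fold changes of -0.89 and -0.84, edgeR adjusted p = 0.00782 and 0.00870). Both genes were lower in the ELK3-labelled libraries than in the other 4. MYLIP, a ubiquitin ligase for lipoprotein receptors, was lower in both comparisons (log2 fold changes of -1.06 and -1.14, edgeR adjusted p = 0.00803 and 0.00567). GRAMD1C, a sterol transfer protein, had log2 fold changes of -1.21 and -1.47 (edgeR adjusted p = 0.0462 and 0.0242). The other 2 called genes of this list, named after their values were seen, were called against the NC mimic only. SOAT1, which esterifies cholesterol, was the 1 higher gene (log2 fold change 0.64, edgeR adjusted p = 0.0237, and 0.246 against miR-200a), and LIPA, the lysosomal acid lipase, was lower (log2 fold change -0.72, edgeR adjusted p = 0.0430, and 0.208 against miR-200a).

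Of 32 tested genes of other fatty acid and glycerolipid synthesis, 1 was called against miR-200a (3.12%) and 3 against the NC mimic (9.38%). MLXIPL, a glucose-responsive transcription factor of lipogenesis, was lower than with miR-200a (log2 fold change -1.38, edgeR adjusted p = 0.0137), and its adjusted p against the NC mimic was 0.0929. GPAM and AGPAT3, acyltransferases of glycerolipid synthesis, and ACSS1, a mitochondrial acetyl-CoA synthetase, were higher than with the NC mimic (log2 fold changes of 1.59, 0.63 and 0.82, edgeR adjusted p = 0.0324, 0.0455 and 0.0309). Against miR-200a these genes had log2 fold changes of 0.40, 0.45 and 0.42 (adjusted p = 0.485, 0.114 and 0.184), and with miR-200a alone, relative to the NC mimic, of 1.20, 0.17 and 0.40 (adjusted p = 0.401, 0.84 and 0.625). Of 26 genes of fatty acid oxidation, only PPARA, a nuclear receptor that switches these genes on, was called (log2 fold changes of -1.11 and -1.27, edgeR adjusted p = 0.0162 and 0.00942), a share of 3.85% in each comparison.

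The calls of the genes named by size of change from these 4 lists depended on single libraries. All 8 against miR-200a were lost without miR-200a replicate 1 (adjusted p from 0.0787 to 0.209) or replicate 2 (0.0941 to 0.314), and all 11 against the NC mimic without NC mimic replicate 1 (0.0524 to 0.274) or replicate 2 (0.0580 to 0.223). Without ELK3-labelled replicate 2, 7 of the 8 and 10 of the 11 passed. Libraries outside the comparison, which enter the shared estimate of spread, also mattered. Of the 8, 2 were lost without NC mimic replicate 1 and 2 without replicate 2 (adjusted p up to 0.0945), and of the 11, 5 were lost without miR-200a replicate 1 and 5 without replicate 2 (adjusted p up to 0.111). Overlaps with other genes were not examined for these lists.

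**Figure D5:**
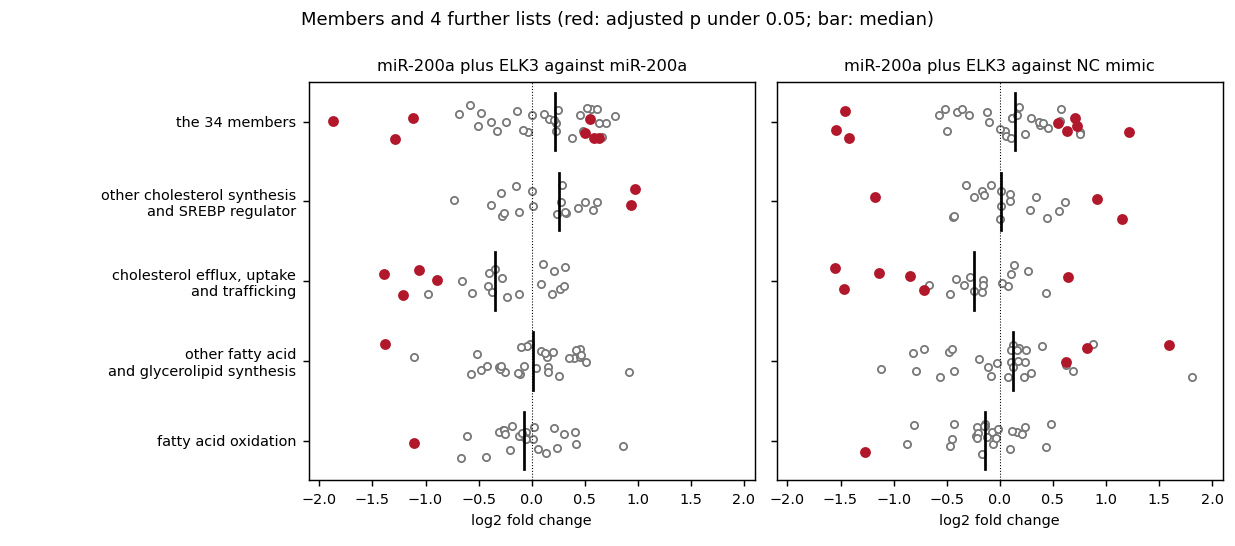
Log2 fold change (x axis) of the 34 members and of the tested genes of 4 further lists (y axis) in the ELK3-labelled libraries, against miR-200a and against the NC mimic; red points have an adjusted p under 0.05 and bars mark medians. In the list of efflux, uptake and trafficking genes the medians were -0.34 and -0.24, and the red points were lower except 1 against the NC mimic.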

How the data were processed

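QuantSeq 3′ mRNA libraries of MDA-MB 231 cells (3 groups, 2 libraries each) were analysed from the read counts per gene symbol that the authors deposited, which were whole numbers without normalization. The submitters' processing notes name Bowtie2, edgeR and hg19; the counting program, its strand setting and the annotation are not given in the sources used here. Lines sharing a symbol (286 symbols) were summed. Counts were scaled by TMM, filtered by filterByExpr (minimum count 10) and tested by the quasi-likelihood test of edgeR 4.0.16 (R 4.3.3) with all 6 libraries in a single model (3 residual degrees of freedom). P-values were adjusted by Benjamini-Hochberg over 12650 symbols, and members or genes were called at an adjusted p under 0.05. The alternatives were DESeq2 1.42.0, limma 3.58.1 on quantile-normalized log2(count + 1), other filters, scalings and samples, a replicate block and leaving out each library. Values in every library are given for called members, SREBF1, SREBF2 and SCAP, and from each further list up to 4 called genes of the largest change per comparison were named, and SOAT1 and LIPA were added after their values were seen; 1 gene of these lists is not reported here. The members and lists were chosen with earlier results of these data known. Gene positions came from GENCODE release 29 and RefSeq on GRCh38, not from hg19. Depth was 3055915 to 4868004 counts.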

Additional observations from a re-analysis of the deposited data

How the results depend on the processing

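The number of members called depended on the fit. Against the NC mimic, miR-200a gave 0 members with all 6 libraries fitted and 1 with only the 2 compared groups. The cut-offs of the study, applied to the edgeR fit, also gave 1, beside 578 over all genes. Against miR-200a, the ELK3-labelled libraries gave 7, and 4 with DESeq2, upper-quartile normalization, only the 2 compared groups or the replicate block, and 2 with limma. Against the NC mimic they gave 8, and 5 with only the 2 compared groups and 4 with limma. When each library was left out in turn, the counts ranged from 0 to 1, from 0 to 19 and from 1 to 18 in the same order, and the medians of the members' log2 fold changes from -0.055 to 0.025, from 0.14 to 0.22 and from 0.14 to 0.20. With upper-quartile normalization the median against miR-200a was 0.15 and against the NC mimic 0.080. Where a single library was left in a group, it was assumed to vary like the others.

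No named member or gene changed direction while called. Over all genes, the calls (34, 1637 and 1629) were 88 for the first comparison with DESeq2, 230, 2490 and 2525 without the low-count filter, 983, 542 and 587 with only the 2 compared groups, and 4, 107 and 391 with limma. Deviations of same-numbered libraries from the group means had correlations of -0.0029, -0.036 and -0.11 across genes. Such a correlation cannot tell whether these libraries shared more than a number, such as a day or a culture. With the replicate block, 0, 4 and 6 members and 13 genes of the first comparison were called. With crossed numbers of the ELK3-labelled libraries, an alternative chosen after seeing the data, 0, 7 and 7 members were called, and 22 genes of the first comparison. The lowest count of a member was 10, for MVD in 1 library.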
